A study of Mus musculus with 12 samples.

Results

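Respiratory complex I is the NADH dehydrogenase of the mitochondrial inner membrane, and its nuclear-encoded subunit genes were followed here in mouse liver with and without an active form of AMPK. The genes were chosen by name, as symbols that begin with Nduf, then a, b, c, s or v and a digit, which 37 of the 24453 listed genes met. Of these, 35 encode complex I subunits, 7 core and 28 accessory, on the usual division of the complex. The other 2 matches lie outside the complex: Ndufa4 is now counted as a complex IV subunit, and Ndufa4l2 is its paralog. The assembly factors, the acyl carrier gene Ndufab1 and the subunits encoded by mitochondrial DNA do not match the name rule, and no row matched Ndufb1, which is not analysed here.

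Complex I passes electrons from NADH to ubiquinone and pumps protons while it does so. Its matrix arm holds an N module, where NADH is oxidised, and a Q module, where ubiquinone is reduced, and its membrane arm holds the proton pumps. Core subunits have bacterial counterparts and carry the flavin and the iron-sulfur clusters, whereas accessory subunits surround and stabilise them. AMPK is a kinase that senses a low energy state, and in liver it is known to act on lipid synthesis, fatty acid oxidation and mitochondria.

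Liver mRNA was sequenced from 12 C57Bl/6J mice, 3 in each of 4 groups, on a diet with 45% of calories from fat (HFD) for 8 weeks. The L-iAMPK HFD+dox group carried ColA-AMPKa1(312), R26-rtTA and Albumin-Cre, had doxycycline (dox) in the diet, and is the sole group whose label records AMPK activation. The L-iAMPK HFD group had the same alleles without doxycycline. The iAMPK HFD+dox group had the transgene and R26-rtTA but no Albumin-Cre, with doxycycline, and the iAMPK HFD group was that genotype without it. All mice therefore carried the transgene and rtTA, and Albumin-Cre is active in hepatocytes, so other liver cells were not the target. Labels number the livers 1 to 3 in each group; the sources used here do not state their ages or sexes.

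Prkaa1, the gene of the AMPK α1 subunit, followed the labels. It stood at 1265, 947 and 1003 FPKM (fragments per kilobase of transcript, scaled to library size, a level per length) in the L-iAMPK HFD+dox livers and at 2.62 to 4.12 FPKM in the other 9. Libraries held 13569437 to 20696899 reads in genes. Hepatocyte markers summed to between 57179 and 70883 FPKM in every library, and T and B cell markers to at most 2.12 FPKM. L-iAMPK HFD replicate 3 stood apart for these genes: it was the highest library of its group for 26 of the 35 subunits, against 37.3% of all genes tested. Counts and calls that change by leaving it out are given both ways.

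Subunit mRNA levels per transcript length covered a 20.8-fold range. Means over the 12 livers ran from 10.9 FPKM for Ndufa11, a membrane arm subunit, to 227 FPKM for Ndufb9, a distal membrane arm subunit, with a median of 72.0 FPKM. Ndufa6 (193 FPKM), Ndufa3 (180 FPKM) and Ndufb8 (153 FPKM) followed Ndufb9. The lowest subunits after Ndufa11 were Ndufs5 (13.6 FPKM), Ndufb4 (13.7 FPKM) and Ndufa12 (22.8 FPKM). These 4 low genes are among the 5 with a copy or pseudogene named after them in RefSeq. The names are Ndufa11b, Ndufs5-ps, Ndufb4b and Ndufb4c, Ndufa12-ps and, for Ndufs6, Ndufs6b. Their sequences were not compared, but reads could be shared with them, so the levels of these genes are uncertain. Ndufa4 stood above every subunit at 366 ± 12.2 FPKM (SD, n = 12 livers), and Ndufa4l2 below them at 1.48 FPKM.

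Most subunits varied little between livers. The coefficient of variation over the 12 livers had a median of 8.96%, was smallest for Ndufa9 (3.40%) and Ndufs8 (3.73%), and was largest for Ndufv3 (20.4%), an accessory subunit of the N module. Neighbours in the order of levels mostly overlapped between livers, as with Ndufa10, Ndufa8 and Ndufv1 at 90.3, 90.4 and 93.8 FPKM.

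**Figure D1:**
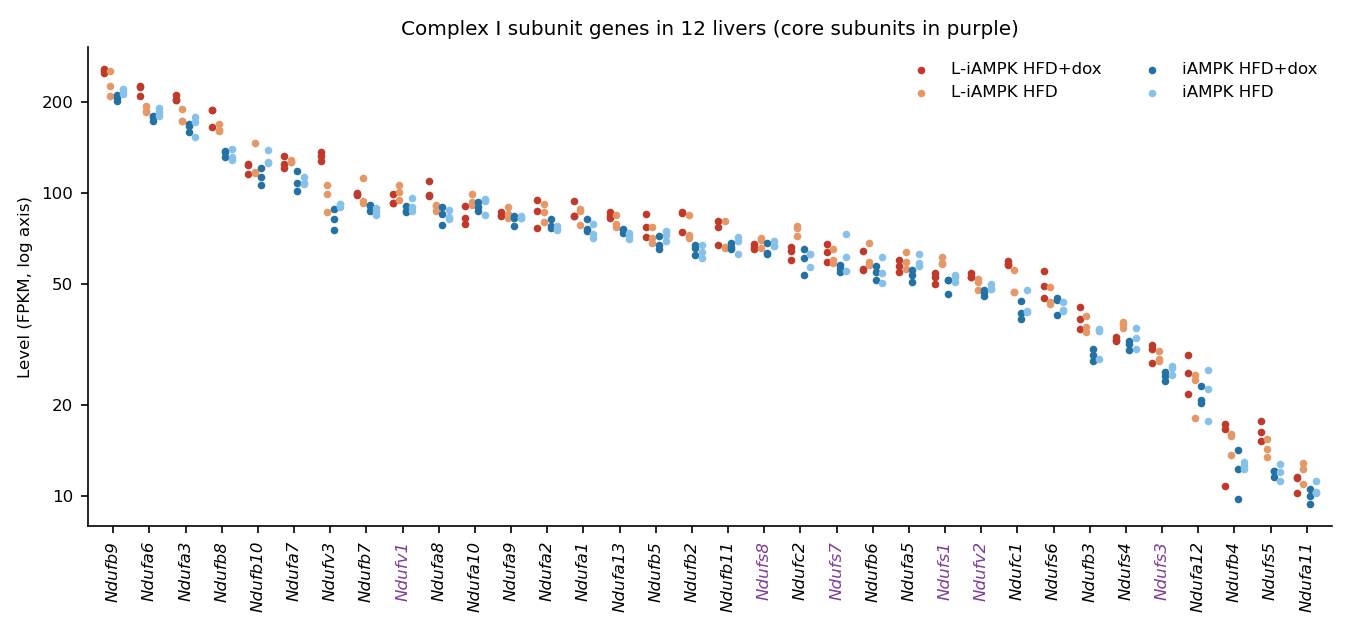
Level of 34 of the 35 complex I subunit genes in FPKM (log axis), 1 point per liver, coloured by group and ordered by the mean over 12 livers. Means run from 227 FPKM for Ndufb9 to 10.9 FPKM for Ndufa11, and at Ndufv3 the 3 L-iAMPK HFD+dox points lie above the other 9.

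The summed level of the 35 subunits was 3082, 3037 and 2937 FPKM in L-iAMPK HFD+dox livers, 2806, 2801 and 3049 FPKM in L-iAMPK HFD livers, 2560, 2588 and 2600 FPKM in iAMPK HFD+dox livers and 2717, 2660 and 2619 FPKM in iAMPK HFD livers. L-iAMPK HFD+dox therefore lay above both iAMPK groups but overlapped L-iAMPK HFD, through replicate 3 of that group. The 28 accessory genes summed to 2535 ± 61.5 FPKM in L-iAMPK HFD+dox, 2387 ± 127 FPKM in L-iAMPK HFD, 2137 ± 24.9 FPKM in iAMPK HFD+dox and 2196 ± 28.7 FPKM in iAMPK HFD (SD, n = 3 each). The 7 core genes summed to 484 FPKM in L-iAMPK HFD+dox, 498 FPKM in L-iAMPK HFD, 445 FPKM in iAMPK HFD+dox and 469 FPKM in iAMPK HFD.

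Changes are given as log2 differences ± SE of log2(FPKM + 0.5), with "rose" and "fell" kept for an adjusted p under 0.05 over the 12614 genes tested. The deposited FPKM carried a general shift: the median change over all genes was -0.13 for L-iAMPK HFD+dox against L-iAMPK HFD, -0.08 against iAMPK HFD+dox, and -0.15 for the interaction. Median-ratio scaling of the libraries brought these to 0.00, -0.01 and 0.01, and counts of subunits are given on both scales. Changes of single genes are as deposited unless the scaling is named. All 37 genes passed the filter on low values.

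With Albumin-Cre, doxycycline was followed by a rise of 2 of the 35 subunit genes as deposited, Ndufv3 and Ndufa6, and by a fall of 1, Ndufc2. Over all genes, 4.76% were called up and 21.1% down. After median-ratio scaling 11 subunit genes rose and 0 fell, against 11.7% of all genes up and 11.4% down, and edgeR's quasi-likelihood test on recovered reads called the same 11 (10.7% of its genes up). These were Ndufv3, Ndufa6, Ndufv2 and Ndufs6 of the N module, Ndufa3, Ndufa8, Ndufa13, Ndufc1 and Ndufs5 of the proximal membrane arm, and Ndufb8 and Ndufb9 of the distal arm. No Q module gene was among them. The median change of the 35 was 0.05 as deposited, with 19 above 0 and 16 below, and 0.20 after scaling, with 31 above and 4 below, so that the direction of many small changes turns with the scale. As deposited, 5 subunit genes were called up without L-iAMPK HFD replicate 3. Only 1 was called without replicate 1 or 2 of either L-iAMPK group.

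With doxycycline in both genotypes, 12 of the 35 subunit genes rose in L-iAMPK HFD+dox livers over iAMPK HFD+dox livers and 0 fell, while 4.61% of all genes were called up and 10.3% down. After median-ratio scaling 15 rose and 0 fell, against 8.46% and 7.26% of all genes, and edgeR called 11, against 3.86%. The median change was 0.17 as deposited and 0.26 after scaling. In 20 of 35 subunits every L-iAMPK HFD+dox liver lay above every iAMPK HFD+dox liver, and in 0 below, against 11.5% and 23.4% of all genes. This comparison shares its L-iAMPK HFD+dox livers with the preceding one. Of the 12 genes called, 4 belong to the distal membrane arm (Ndufb8, Ndufb3, Ndufb9, Ndufb2), 4 to the proximal arm (Ndufc1, Ndufs5, Ndufa3, Ndufa8), 3 to the N module (Ndufv3, Ndufa6, Ndufv2) and 1 to the Q module (Ndufs3). With single livers left out, 6 to 10 were called: 6 without replicate 1 of L-iAMPK HFD+dox, 7 without its replicate 3, 7 without replicate 2 of iAMPK HFD+dox and 6 without its replicate 3.

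Markers of some other liver cells were also called in these comparisons. Stellate cell markers summed to 93.3 to 118 FPKM in L-iAMPK HFD+dox, 138 to 195 FPKM in L-iAMPK HFD and 106 to 181 FPKM in iAMPK HFD+dox; of the 9 tested, 7 fell in the first comparison and 3 in the second. Cholangiocyte markers summed to 18.04 to 22.9 FPKM in L-iAMPK HFD+dox, 38.8 to 156 FPKM in L-iAMPK HFD and 27.1 to 181 FPKM in iAMPK HFD+dox, with 2 and 0 of 6 called down. Endothelial markers summed to 117 to 141, 148 to 157 and 146 to 164 FPKM in the same order of groups, with 5 and 1 of 10 called down. Kupffer cell and macrophage markers summed to 218 to 401, 322 to 429 and 264 to 459 FPKM in that order. Of these 10, 0 were called in either direction in both comparisons. Of 9 hepatocyte markers, 5 rose and 0 fell in the first comparison, and 3 rose and 1 fell in the second. Over all genes, 4.76% rose and 21.1% fell in the first comparison, and 4.61% rose and 10.3% fell in the second. In the second comparison, the endothelial and cholangiocyte shares called down were thus no higher than that of all genes. Marker calls are as deposited and were not counted after median-ratio scaling. No listed marker stood at 0 in all livers. The part of cell composition in the subunit changes was not tested, and in whole liver fewer cells of a type and less RNA per cell cannot be told apart.

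**Figure D2:**
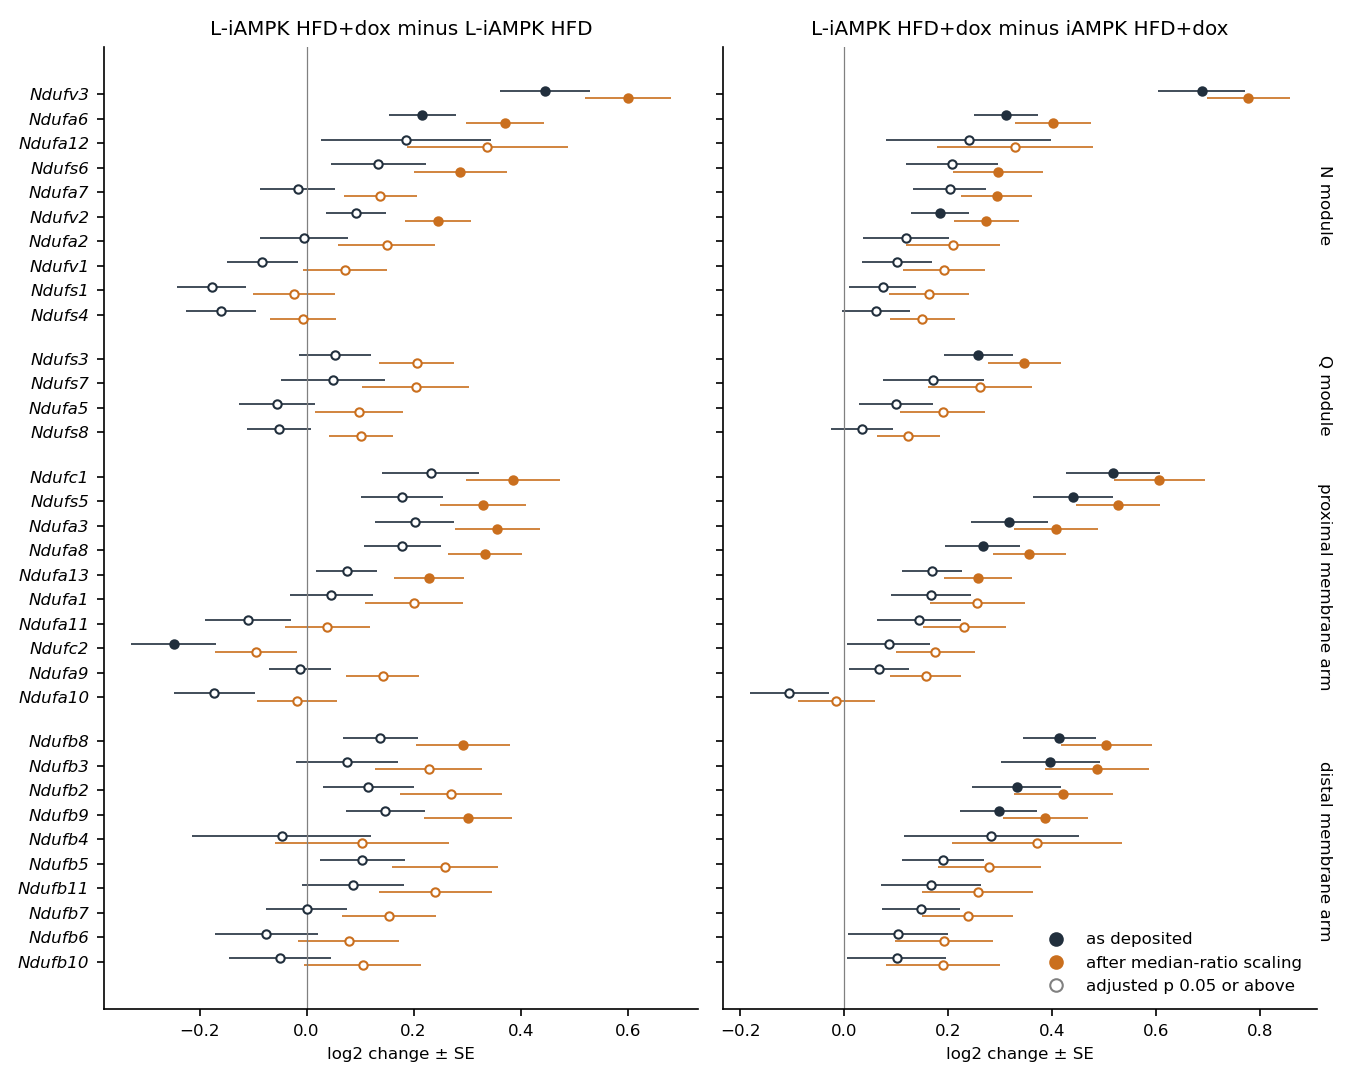
log2 change ± SE of 34 of the 35 subunit genes in the 2 comparisons of L-iAMPK HFD+dox livers, grouped by module, as deposited (dark) and after median-ratio scaling (orange); filled points have an adjusted p under 0.05. Most points in the right panel lie above 0, Ndufv3 is farthest to the right in both, and the scaling shifts all subunits upwards by a like amount.

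Ndufv3 showed the largest subunit change in each comparison of L-iAMPK HFD+dox livers. It encodes a small accessory subunit that sits beside the flavoprotein of the N module, and lies at chr17:31520115-31531325 on the plus strand (mm10). Its level was 133, 128 and 137 FPKM in L-iAMPK HFD+dox, 86.8, 99.3 and 106 FPKM in L-iAMPK HFD, 75.7, 82.3 and 88.6 FPKM in iAMPK HFD+dox, and 92.1, 92.3 and 89.96 FPKM in iAMPK HFD. The lowest L-iAMPK HFD+dox liver thus exceeded the highest of the other 9. It rose by 0.45 ± 0.08 over L-iAMPK HFD (limma adjusted p = 0.00455) and by 0.69 ± 0.08 over iAMPK HFD+dox (adjusted p = 0.000611). It stayed called without any single liver, at 0.37 to 0.51 and at 0.63 to 0.74.

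Ndufv3 is made as 2 transcript forms, which differ by exon 3 of 1092 bases at chr17:31527310-31528401 (GRCm38, GENCODE M21) that the long form keeps and the short form skips. Whether any counted tag lies in the exon of 1092 bases is not given. The sequences across the end of exon 2 show where the forms part. Lower case marks the last bases of exon 2, shared by both, and capitals mark the exon that follows.
Ndufv3 long form: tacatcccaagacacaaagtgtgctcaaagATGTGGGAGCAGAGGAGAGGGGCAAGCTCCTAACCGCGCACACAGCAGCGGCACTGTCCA
Ndufv3 short form: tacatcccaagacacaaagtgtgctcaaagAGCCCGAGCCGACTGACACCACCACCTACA

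The deposited FPKM of Ndufv3 refer to the short transcript of 482 bases, whereas the tag table counts more reads under that symbol than the transcript accounts for. The tag row carries the identifier of another locus, so the bases behind the surplus are not given, although its values follow the Ndufv3 FPKM over the livers. The tags that the short transcript accounts for were obtained from its FPKM, its length and the tags per FPKM and kilobase of the subunits that have 1 transcript in both tables. Both forms hold exon 2 (124 bases), the last exon (222 bases) and nearly all of exon 1 (147 or 144 bases). Tags on the short transcript can therefore come from either form. Neither they nor the surplus measure a single form, and the share given below is not a share of forms. The tags on the short transcript averaged 1304 ± 47.4 scaled tags in L-iAMPK HFD+dox, 956 ± 94.7 tags in L-iAMPK HFD, 813 ± 68.5 tags in iAMPK HFD+dox and 905 ± 10.4 tags in iAMPK HFD (SD, n = 3 each).

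The surplus tags averaged 271 ± 22.9 in L-iAMPK HFD+dox livers, 280 ± 16.4 in L-iAMPK HFD livers, 269.7 ± 37.2 in iAMPK HFD+dox livers and 284 ± 8.33 in iAMPK HFD, with ranges that overlapped between all groups. Their share of all Ndufv3 tags, which no scaling between libraries can move, was 15.9, 18.9 and 16.9% in L-iAMPK HFD+dox livers, 23.4, 22.9 and 21.8% in L-iAMPK HFD livers, 23.4, 25.9 and 25.2% in iAMPK HFD+dox livers and 24.3, 23.6 and 23.8% in iAMPK HFD. Each L-iAMPK HFD+dox liver had a lower share than each other liver. Each L-iAMPK HFD liver also had a lower share than each iAMPK HFD liver, with means of 22.7 and 23.9%. That pair has no labelled AMPK activation. The exact two-sided permutation test gave p = 0.1 for the share in that pair and in both comparisons of L-iAMPK HFD+dox. This is the smallest p that 3 against 3 livers allow. The same exact permutation test gave p = 0.7 against L-iAMPK HFD and p = 1 against iAMPK HFD+dox for the surplus tags themselves, which does not show that they were equal. Among the other subunits counted on different transcripts in the tables, the group means of that share lay between 19.1 and 21.3% for Ndufa5, between 2.98 and 3.42% for Ndufs8 and between 0.815 and 1.22% for Ndufa7. For Ndufs1 the share was 2.91 to 3.18% in L-iAMPK HFD+dox livers, below the 3.558 to 3.602% of L-iAMPK HFD livers, and overlapped the 2.878 to 3.497% of iAMPK HFD+dox livers.

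**Figure D3:**
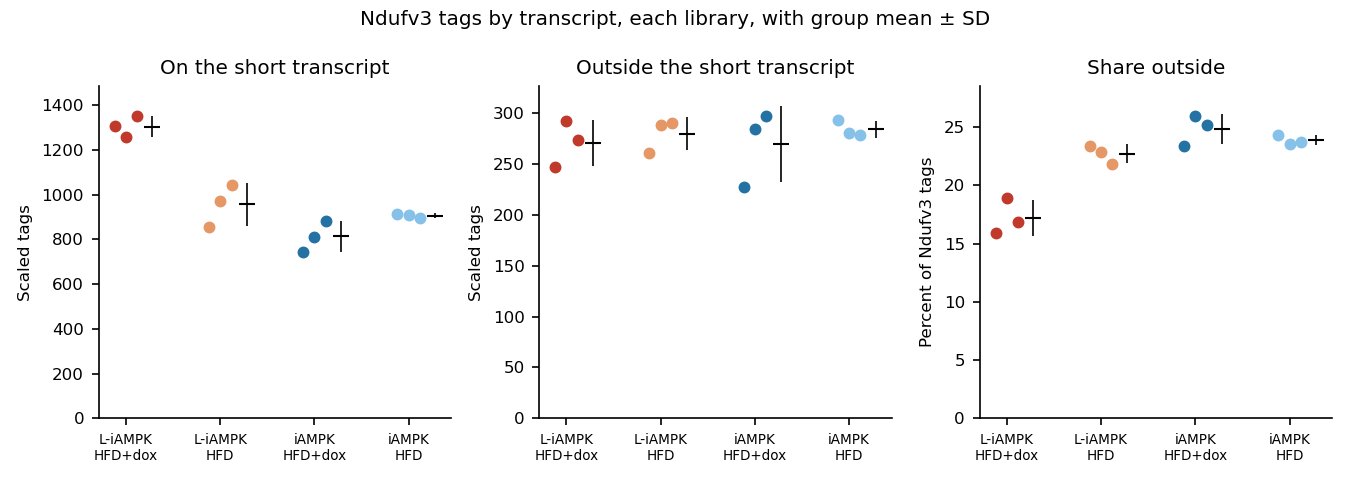
Ndufv3 tags on the short transcript (left), tags beyond it (middle) and the tags beyond it as a percentage of all Ndufv3 tags (right), 1 point per liver with the group mean ± SD beside it. Tags on the short transcript can come from either form. The short-transcript tags are highest in L-iAMPK HFD+dox (1304 ± 47.4), the surplus is near 270 to 284 in all 4 groups, and the share is lowest in L-iAMPK HFD+dox (15.9 to 18.9%).

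In the N module, Ndufa6 was the other gene called in both comparisons as deposited. It encodes a LYR-motif subunit that binds the acyl carrier protein (chr15:82350139-82354291, minus strand). Its level was 225, 226 and 210 FPKM in L-iAMPK HFD+dox, 186, 188 and 195 FPKM in L-iAMPK HFD, 178, 173 and 181 FPKM in iAMPK HFD+dox and 191, 186 and 180 FPKM in iAMPK HFD, again with no overlap between L-iAMPK HFD+dox and the rest. It rose by 0.22 ± 0.06 over L-iAMPK HFD (limma adjusted p = 0.0267) and by 0.31 ± 0.06 over iAMPK HFD+dox (adjusted p = 0.00831). The first call was lost when replicate 1 or 2 of either L-iAMPK group was left out, where the change was 0.20 to 0.21 and the adjusted p 0.0769 to 0.0841.

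Ndufv2, a core iron-sulfur subunit of the N module, moved less. It stood at 54.7, 52.8 and 53.1 FPKM in L-iAMPK HFD+dox and at 45.8, 48.0 and 47.3 FPKM in iAMPK HFD+dox, and rose by 0.18 ± 0.06 (limma adjusted p = 0.0474). The other core genes of the module gave no call: Ndufv1, which binds the flavin, changed by 0.10 against iAMPK HFD+dox and -0.08 against L-iAMPK HFD, and Ndufs1, which holds iron-sulfur clusters, by 0.08 and -0.18. After median-ratio scaling these were 0.19 and 0.07 for Ndufv1, which turns direction against L-iAMPK HFD, and 0.16 and -0.02 for Ndufs1. Ndufs4, an accessory subunit whose loss causes Leigh-like disease in mice, stood at 32.5 to 33.4 FPKM in L-iAMPK HFD+dox, 35.99 to 37.6 FPKM in L-iAMPK HFD and 30.3 to 32.5 FPKM in iAMPK HFD+dox.

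In the Q module, 1 of 5 genes was called over iAMPK HFD+dox. Ndufs3, a core subunit, stood at 31.4, 27.5 and 30.6 FPKM in L-iAMPK HFD+dox and 24.9, 25.7 and 23.9 FPKM in iAMPK HFD+dox, a rise of 0.26 ± 0.07 (limma adjusted p = 0.0252). Its exons overlap those of Kbtbd4 on the opposite strand by 88 bases. Ndufs7, Ndufs8 and Ndufa5 changed by 0.03 to 0.17 in that comparison and by -0.06 to 0.05 against L-iAMPK HFD. After median-ratio scaling they changed by 0.12 to 0.26 and by 0.10 to 0.20, so that Ndufs8 and Ndufa5 turned direction against L-iAMPK HFD.

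Ndufc1, a small membrane subunit, led the proximal arm (chr3:51405479-51408955, minus strand). It stood at 58.6, 59.7 and 57.7 FPKM in L-iAMPK HFD+dox, 47.3, 47.1 and 55.8 FPKM in L-iAMPK HFD, 38.4, 40.2 and 44.1 FPKM in iAMPK HFD+dox and 48.0, 40.7 and 40.4 FPKM in iAMPK HFD. It rose by 0.52 ± 0.09 over iAMPK HFD+dox (limma adjusted p = 0.00433). Its change over L-iAMPK HFD was 0.23 ± 0.09 (adjusted p = 0.0781), or 0.31 (adjusted p = 0.0243) without L-iAMPK HFD replicate 3 and 0.39 (adjusted p = 0.0113) after median-ratio scaling.

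Ndufs5, Ndufa3 and Ndufa8, of the same arm, were also called over iAMPK HFD+dox. Ndufs5, an intermembrane-space subunit, stood at 17.7, 16.2 and 15.2 FPKM in L-iAMPK HFD+dox and 12.1, 11.6 and 12.1 FPKM in iAMPK HFD+dox, a rise of 0.44 ± 0.08 (limma adjusted p = 0.00448) in a gene that has a pseudogene. Ndufa3, a single-pass membrane subunit, stood at 203, 203.5 and 211 FPKM in L-iAMPK HFD+dox, 173, 174 and 189 FPKM in L-iAMPK HFD and 159, 169.5 and 167 FPKM in iAMPK HFD+dox. Ndufa3 rose by 0.32 ± 0.07 over iAMPK HFD+dox (adjusted p = 0.0162), a call lost without L-iAMPK HFD+dox replicate 3 (adjusted p = 0.0559). Its change over L-iAMPK HFD was 0.20 ± 0.07 (adjusted p = 0.0645), or 0.24 (adjusted p = 0.0347) without L-iAMPK HFD replicate 3. Ndufa8, an intermembrane-space subunit with cysteine motifs, stood at 98.02 to 109.7 FPKM in L-iAMPK HFD+dox, 87.4 to 91.6 FPKM in L-iAMPK HFD and 78.6 to 90.2 FPKM in iAMPK HFD+dox. Its rise of 0.27 ± 0.07 over iAMPK HFD+dox (adjusted p = 0.0306) was lost without every liver but iAMPK HFD+dox replicate 2 (adjusted p 0.0513 to 0.11).

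Ndufc2, which is anchored beside Ndufc1, went the other way. It stood at 66.2, 60.1 and 64.4 FPKM in L-iAMPK HFD+dox and at 72.4, 76.5 and 77.9 FPKM in L-iAMPK HFD, and fell by 0.25 ± 0.08 on the log2 scale (limma adjusted p = 0.041). After median-ratio scaling the change was -0.09 (adjusted p = 0.387), and the call was lost without each of the 6 livers (adjusted p 0.0598 to 0.126). Against iAMPK HFD+dox, with 53.9, 65.2 and 61.0 FPKM, Ndufc2 overlapped. Ndufa10, an accessory subunit of the kinase fold family, was the subunit with the lowest change in that comparison, -0.10 ± 0.08, or -0.02 after median-ratio scaling.

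In the distal membrane arm, Ndufb8 stood at 189, 188 and 165 FPKM in L-iAMPK HFD+dox, 161, 162 and 169 FPKM in L-iAMPK HFD, 138, 136.5 and 132 FPKM in iAMPK HFD+dox and 129, 132 and 139.6 FPKM in iAMPK HFD. It rose by 0.41 ± 0.07 over iAMPK HFD+dox (limma adjusted p = 0.00379). It also rose in L-iAMPK HFD over iAMPK HFD, without doxycycline, by 0.29 ± 0.07 (adjusted p = 0.0433), a call that median-ratio scaling ended (change 0.20, adjusted p = 0.192). It was also lost without each liver but L-iAMPK HFD replicate 3 (adjusted p 0.0653 to 0.15). Ndufb3, Ndufb9 and Ndufb2, further accessory subunits of that arm, rose by 0.40, 0.30 and 0.33 over iAMPK HFD+dox. Ndufb2, Ndufb8 and Ndufb9 share 134 to 201 exonic bases with a gene model on the same strand, and their reads cannot be fully told apart from it. In all, exons of 14 of the 37 genes overlap another gene, 12 of them one on the opposite strand, which the strand of counting would separate; that is not stated.

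**Figure D4:**
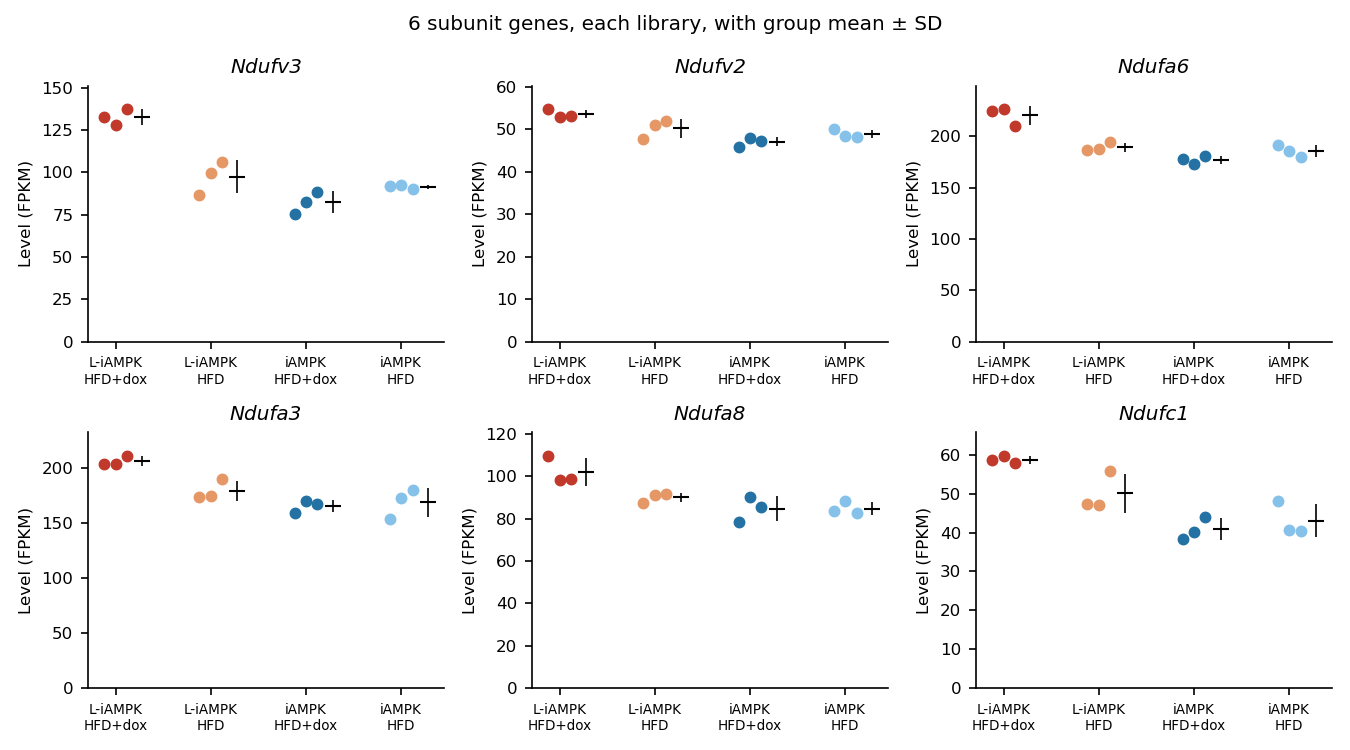
Level in FPKM of the 6 subunit genes whose 3 L-iAMPK HFD+dox livers all exceeded the other 9, 1 point per liver with the group mean ± SD beside it, axes starting at 0. The gap is widest for Ndufv3 (128 to 137 against 75.7 to 106 FPKM) and narrow for Ndufv2 (52.8 to 54.7 against 45.8 to 52.0 FPKM).

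Setting L-iAMPK HFD+dox against all 9 other livers, 6 of the 35 subunit genes lay wholly above (Ndufv3, Ndufv2, Ndufa6, Ndufa3, Ndufa8 and Ndufc1) and 0 wholly below, against 4.19% and 12.2% of all genes. Against L-iAMPK HFD alone the same 6 lay above, and Ndufa10, Ndufc2, Ndufs1 and Ndufs4 lay below, against 9.06% and 34.9%.

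Between groups without labelled AMPK activation there was 1 subunit call. For iAMPK HFD+dox against iAMPK HFD, limma called 0 of 35 in either direction, with 1 at an unadjusted p under 0.05, while 0.00% of all genes were called; edgeR called 0 as well. The smallest p belonged to Ndufa5 (-0.16 ± 0.07, adjusted p = 0.799), Ndufb10 (-0.20 ± 0.10, adjusted p = 0.799) and Ndufv3 (-0.16 ± 0.08, adjusted p = 0.811). In that pair Ndufa13 lay wholly above, and Ndufa5, Ndufb10, Ndufb9, Ndufv2 and Ndufv3 wholly below, against 5.78% and 4.46% of all genes. For L-iAMPK HFD against iAMPK HFD, Ndufb8 was the sole call, against 3.04% of all genes up and 1.27% down, and 2 were called without L-iAMPK HFD replicate 3. The median change of the 35 in that pair was 0.13 as deposited, with 31 above 0, against a median of 0.08 over all genes. An unadjusted limma p under 0.05 was met by 11 of the 35, and by 3223 of all 12614 genes. After median-ratio scaling the median of the 35 was 0.04, with 20 above 0 and 15 below. In that pair 12 subunits lay wholly above and 0 wholly below, against 23.3% and 6.80% of all genes.

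The interaction tested whether the doxycycline effect differed between L-iAMPK and iAMPK livers. Ndufv3 passed it, with an effect 0.60 ± 0.12 higher in L-iAMPK (limma adjusted p = 0.0137), and no other subunit did as deposited, against 2.01% of all genes up and 11.2% down. After median-ratio scaling 7 passed, Ndufv3, Ndufa6, Ndufc1, Ndufv2, Ndufa8, Ndufa3 and Ndufb9, against 5.72% of all genes up and 5.74% down. Ndufa6 reached 0.28 ± 0.09 as deposited (adjusted p = 0.0538) and 0.47 ± 0.10 after scaling (adjusted p = 0.0211). Without L-iAMPK HFD replicate 3 the count as deposited was 4, Ndufa6 and Ndufc1 among them (adjusted p = 0.0338 and 0.0448).

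Ndufa4 and Ndufa4l2 gave no call in any comparison. Ndufa4 averaged 360 ± 7.98 FPKM in L-iAMPK HFD+dox, 377 ± 10.98 FPKM in L-iAMPK HFD, 362 ± 1.01 FPKM in iAMPK HFD+dox and 364 ± 18.5 FPKM in iAMPK HFD (SD, n = 3 each). Ndufa4l2 stood at 1.52, 1.44, 1.44 and 1.52 FPKM in the same groups.

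The authors' deposited table, a comparison of their own, gave the subunits a median log2 fold change of 0.23 for L-iAMPK HFD+dox over L-iAMPK HFD. It called Ndufv3 (0.52), Ndufc1 (0.41) and Ndufa6 (0.40) up in that pair, with 0 down, against 4.27% of all genes up and 6.64% down. Over iAMPK HFD+dox, the authors' deposited table called up 9 subunits, Ndufv3 (0.66) and Ndufc1 (0.63) among them, and 0 down, against 2.57% and 3.79%. The authors' values are given with the tags, which for Ndufv3 include those beyond the short transcript, as do the reads used with edgeR. The limma values of Ndufv3 use the FPKM of the short transcript alone, so the measures differ.

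Changes were set beside transcript length. The 35 FPKM transcripts run from 343 to 2655 bases, and core transcripts are longer (median 1530 bases) than accessory ones (median 613). Spearman's rho between length and change over the 35 genes was -0.50 against L-iAMPK HFD and, with iAMPK HFD+dox as the other group, -0.54, against -0.03 and -0.07 over all 12614. Within the 28 accessory genes rho was -0.41 and -0.50 in the same order. Over the 35 genes it was -0.19 for iAMPK HFD+dox against iAMPK HFD and -0.22 for L-iAMPK HFD against iAMPK HFD. These values describe genes that share libraries and are no test. Over iAMPK HFD+dox, the 22 subunits of up to 750 bases had a median change of 0.25, the 7 of up to 1500 bases 0.17, and the 6 longer ones 0.11. All genes tested in these classes had medians of 0.03, -0.04 and -0.10. Length and role go together in these genes, and the part of length in the result was not tested.

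**Figure D5:**
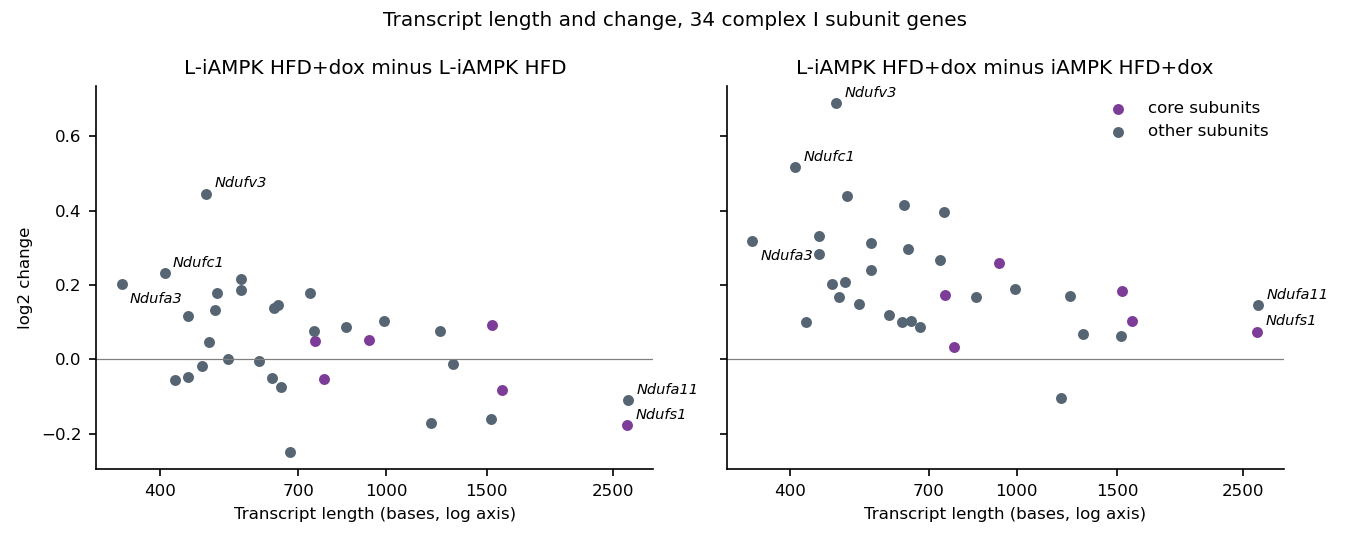
log2 change of 34 of the 35 subunit genes as deposited against the length of its transcript in bases (log axis), core subunits in purple, for both comparisons of L-iAMPK HFD+dox livers. Short transcripts such as those of Ndufv3 and Ndufc1 lie highest, and the longest, Ndufa11 and Ndufs1, lie lower.

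Of 19 assembly factors, which build the complex but do not stay in it, 0 rose and 4 fell against L-iAMPK HFD as deposited, where 21.1% of all genes fell, so the share that fell is near that of all genes. With median-ratio scaling 1 was called up and 1 down, against 11.7% and 11.4%. Nubpl, which in human cells delivers iron-sulfur clusters to the complex, fell on both scales. Its level was 3.02 ± 0.82 FPKM in L-iAMPK HFD+dox and 6.64 ± 1.04 FPKM in L-iAMPK HFD (SD, n = 3 each), a change of -1.04 ± 0.17 (limma adjusted p = 0.0022). Against iAMPK HFD+dox, with 5.42 ± 0.61 FPKM, its change was -0.77 ± 0.17 (limma adjusted p = 0.0123), a call that edgeR on recovered reads did not make (-0.80, adjusted p = 0.0542). Ndufaf7, Acad9 and Lyrm2 were the other 3 that fell against L-iAMPK HFD, by 0.36, 0.29 and 0.34 on the log2 scale, and none of these 3 kept an adjusted p under 0.05 after scaling (0.0862, 0.173 and 0.193). Tmem70 and Timmdc1, factors of membrane arm assembly, rose over iAMPK HFD+dox by 0.26 and 0.24. Ndufab1 averaged 3.40 ± 0.54 FPKM in L-iAMPK HFD+dox, 2.31 ± 0.18 FPKM in L-iAMPK HFD, 2.83 ± 0.82 FPKM in iAMPK HFD+dox and 2.97 ± 1.08 FPKM in iAMPK HFD, with no call.

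The other respiratory complexes were set beside complex I over iAMPK HFD+dox, as deposited. Complex V genes were taken as all symbols that begin with Atp5. They include Atp5s, and Atp5sl, which is also listed with the assembly factors, so this list is not of subunits alone. Of 18 complex IV genes listed 12 passed the filter and were tested, and of 77 mitochondrial ribosome genes 75. Of 4 complex II genes 0 rose, of 9 complex III genes 4 rose, of 12 complex IV genes 6 rose, of 17 complex V genes 2 rose and of 75 mitochondrial ribosome genes 6 rose and 4 fell; in complexes II to V 0 fell. Over all genes 4.61% rose and 10.3% fell. On the scaled levels 0, 5, 8 and 5 genes of complexes II to V rose, and 17 of the ribosome rose and 1 fell, against 8.46% and 7.26% of all genes. With edgeR 0, 2, 6, 0 and 6 rose, against 3.86%. Medians as deposited were -0.05, 0.18, 0.27, 0.13 and 0.05. Against L-iAMPK HFD, 0 genes of complexes II to V rose and 1, 2, 1 and 0 fell, against 4.76% and 21.1% of all genes, among them the complex II subunit Sdhc (-0.27 ± 0.06, limma adjusted p = 0.0116) and the complex III core gene Uqcrc1 (-0.30 ± 0.07, adjusted p = 0.0129). Neither kept its call after median-ratio scaling (limma adjusted p = 0.215 and 0.194), with which 0, 1, 2 and 1 genes of complexes II to V rose and 0 fell, against 11.7% and 11.4% of all genes.

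Promoters of the subunit genes were searched for letters bound by factors known to act on nuclear genes of respiration. RefSeq (GRCm38.p6) gave 250 bases before and 50 after the start for 31 of the 35. NRF1 letters, GCGCNNGCGC, which read the same on both strands, stood in 8 of 31 (25.8%), against 14.8% of promoters of genes tested and 6.23% of all promoters. YY1 letters, AAGATGGCG on either strand, stood in 5 of 31 (16.1%), against 3.64% and 1.40%. All 5 lay on the gene's strand, 23 to 36 bases after the start. ERR letters, AAGGTCA, stood in 3 (9.68%; 4.34% of genes tested) and ETS letters, CCGGAAG, in 4 (12.9%; 19.7% of genes tested).

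The stretches below show the NRF1 letters in 4 subunit genes that rose over iAMPK HFD+dox, in capitals and read along the gene's strand, here minus.
Ndufs5, chr4:123718265-123718294: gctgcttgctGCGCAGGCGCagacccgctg
Ndufa8, chr2:36049349-36049378: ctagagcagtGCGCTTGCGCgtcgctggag
Ndufv2, chr17:66101557-66101586: gggctcgtgaGCGCGCGCGCgccgtgcgtc
Ndufa6, chr15:82354249-82354278: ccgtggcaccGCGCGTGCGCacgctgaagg

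The YY1 letters of the 5 genes that hold them are shown because they lie at nearly one place in each gene. They are again in capitals along the gene's strand, minus except for Ndufs7. The letters include ATG, and their place relative to the start of translation was not examined. Ndufs6 holds NRF1 letters as well.
Ndufc1, chr3:51408915-51408943: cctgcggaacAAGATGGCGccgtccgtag
Ndufa9, chr6:126849097-126849125: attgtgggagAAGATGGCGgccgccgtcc
Ndufs4, chr13:114388045-114388069: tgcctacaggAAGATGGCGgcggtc
Ndufs6, chr13:73328433-73328459: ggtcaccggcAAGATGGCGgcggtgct
Ndufs7, chr10:80249463-80249491: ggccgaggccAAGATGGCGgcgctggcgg

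Of the 12 subunit genes that rose over iAMPK HFD+dox, 11 had a promoter entry, of which 4 held the NRF1 letters and Ndufc1 the YY1 letters, while Ndufv3 held neither. A match of letters describes the sequence and is not a site in use.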

How the data were processed

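Per the labels' protocols, the library kit was TruSeq stranded-mRNA. The submitters' processing notes name FastQC, STAR 2.4.0k, HOMER, edgeR 3.6.8 and mm10; the strand used in counting is not stated. Levels are FPKM that the authors deposited for each gene, to which they had added 0.5, subtracted here. A second deposited table holds a signal, tags scaled to a common total, with the authors' log2 fold changes and p-values. Of the members, 6 have another transcript in the tables; the tag rows of Ndufc1 and Ndufv3 carry another locus, and coordinates come from the FPKM table.

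Genes with at least 0.5 FPKM in at least 3 of 12 libraries (12614) were fitted as log2(FPKM + 0.5) with limma 3.58.1 in R 4.3.3 (group means over all 12 libraries, trend, robust), Benjamini-Hochberg adjusted over all, threshold 0.05. The test was checked on simulated data. Alternatives were other scalings, pseudocounts and filters, the replicate block, compared libraries only, each library left out, and edgeR 4.0.16 and DESeq2 1.42.0 on whole reads recovered from the scaled tags (100% of values within 0.02 of whole). Replicate 2 of iAMPK HFD+dox, with 0.995 tags to a read, was not claimed, leaving 11 libraries. Of 13773 genes, edgeR called 2992 between the L-iAMPK groups. The lowest chi-square per degree of freedom within a group was 7.53, between replicates 1 and 2 of L-iAMPK HFD. Replicate 3 of that group gave 52.4 and 52.2 against them, and pairs in the other groups gave 18.1 to 53.45. P-values measure the spread between livers, part of which may be technical.

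A subunit is counted with the 35 but not reported here by itself. Members, lists and named-gene rules were chosen with earlier results of these data known. Full test values are given for at most 6 called members per direction and comparison, with up to 4 genes of smallest p of other lists.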

Additional observations from a re-analysis of the deposited data

Results flagged for a closer look

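The doxycycline effect on Ndufv3 differed between the genotypes. The interaction was 0.60 ± 0.12 on the log2 scale (limma adjusted p = 0.0137), from a change of 0.45 in L-iAMPK livers and -0.16 in iAMPK livers. It stayed called without each of the 12 livers in turn (0.52 to 0.67, adjusted p 0.00653 to 0.0403), and lost its call with no filter on low values (adjusted p = 0.0577). Groups of 3 are too small for a test of single outlying livers.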

How the results depend on the processing

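Called subunit changes kept their direction under the alternatives run, but many small ones did not: against L-iAMPK HFD, 19 of 35 subunits lay above 0 as deposited, 31 after median-ratio scaling and 32 with edgeR, and for the interaction 24, 34 and 35. For L-iAMPK HFD+dox against L-iAMPK HFD, the 2 subunit genes called up became 11 after median-ratio scaling, 7 after quantile normalization, 11 with edgeR, 10 with DESeq2, 1 with the compared libraries alone and 1 to 5 with single livers left out, 5 being without L-iAMPK HFD replicate 3. The 1 called down became 0 after median-ratio scaling or quantile normalization, with no filter, the replicate block, edgeR or DESeq2, and 0 with each single liver left out. Against iAMPK HFD+dox, the 12 called up became 21 after quantile normalization, 7 with no filter and 6 to 10 with single livers left out. For L-iAMPK HFD against iAMPK HFD, the 1 called up became 2 after quantile normalization or with a filter at 2 FPKM. It became 0 after median-ratio scaling, with no filter, the replicate block, the compared libraries alone, edgeR or DESeq2, and 0 to 2 with single livers left out. For the interaction, the 1 called became 7 after median-ratio scaling, 3 after quantile normalization, 0 with no filter, 3 with edgeR, 6 with DESeq2 and 1 to 4 with single livers left out. Among values of single named genes, 345 kept direction and call, 38 lost the call and 31 gained one. Median-ratio scaling moves all genes by a like amount; otherwise the cause was not tested. Whether replicate numbers pair the livers was not settled. Of 18 same-number pairs, 8 had a correlation of deviations over 0.1 (range -0.275 to 0.446), and pairs of unlike number were not compared. With the replicate block 2, 10 and 1 subunits were called up against L-iAMPK HFD, against iAMPK HFD+dox and in the interaction.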
